A study of Rattus norvegicus with 24 samples.

Results

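The genes described here encode the 3 inducible catalytic subunits of the proteasome (Psmb8, Psmb9 and Psmb10), the 2 chains of the peptide transporter TAP (Tap1 and Tap2) and tapasin (Tapbp). They were chosen by name: every non-control probe that carried 1 of these 6 symbols in the scanner files or in the study's list of MHC genes was taken, which gave 7 probes in 23 spots, out of 8453 probes for 7250 genes on the array. Psmb8, Psmb9, Psmb10, Tap2 and Tapbp had 1 probe each and Tap1 had 2. The samples were paw skin explants of male BN rats (RT1n haplotype) aged 15 weeks, trimmed to an edge of 1.5 mm and kept for 3 days with 1000000 lymphocytes. In the allogeneic group the lymphocytes came from PVG rats (RT1c haplotype), whose spleen cells had been stimulated for 7 days with irradiated BN spleen cells in a mixed lymphocyte reaction. In the syngeneic group, the control, they came from BN rats after the same culture with irradiated BN cells. The combination is mismatched for major and minor histocompatibility antigens, and the allogeneic culture is a model of the graft-versus-host reaction of skin. RNA of the allogeneic and the syngeneic explant of each of 12 rats was compared on 2 arrays with exchanged dyes, 24 arrays in all on 3 slides of 8. All values are log2 ratios of the sample labelled allogeneic over the sample labelled syngeneic, averaged over the 2 arrays of a rat, so a value below 0 means less signal in the sample labelled allogeneic.

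MHC class I molecules show peptides of the cell's own proteins to CD8+ T cells. Under interferon-gamma the catalytic subunits Psmb5, Psmb6 and Psmb7 of the proteasome are replaced by Psmb8 (LMP7), Psmb9 (LMP2) and Psmb10 (MECL-1), and the resulting immunoproteasome cuts peptides whose ends fit class I grooves. The TAP heterodimer carries the peptides into the endoplasmic reticulum, where tapasin bridges it to empty class I molecules and helps to select tightly bound peptides. These genes are active in lymphocytes and macrophages as well as in skin cells that have met interferon, and an explant holds both, so less RNA per cell and fewer cells of a type cannot be told apart in these ratios.

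Because the genes are known as targets of interferon, their promoter windows (250 bases before to 50 after the transcript start, RefSeq, build GRCr8) were searched on both strands for the core of the interferon-stimulated response element, GAAANNGAAA. The windows of 5 of the 6 genes held it and that of Psmb9 did not, against 3.92% of all 33469 windows. The stretches around the matches are shown 5′ to 3′ on the strand of the gene, with the match in capitals. A match read on the other strand appears as its reverse complement. That of Psmb8 lay at chr20:4657017-4657055, that of Tap1 at chr20:4668635-4668684, that of Tap2 at chr20:4652308-4652357 and that of Tapbp at chr20:4967868-4967923, while Psmb10 lay elsewhere, at chr19:50743280-50743385, all on the minus strand.
Psmb8: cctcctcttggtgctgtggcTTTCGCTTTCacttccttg
Psmb10: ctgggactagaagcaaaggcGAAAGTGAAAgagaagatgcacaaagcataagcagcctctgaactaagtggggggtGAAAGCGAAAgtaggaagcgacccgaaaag
Tap1: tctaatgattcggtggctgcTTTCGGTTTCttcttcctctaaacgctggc
Tap2: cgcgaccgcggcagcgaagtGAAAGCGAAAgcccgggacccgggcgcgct
Tapbp: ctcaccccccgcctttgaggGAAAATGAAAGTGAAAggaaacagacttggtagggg
Psmb10 and Tapbp had 2 matches each, and in Tapbp they overlapped. The match of Psmb8 spanned the transcript start, from position -4 to 6, whereas that of Tap1 lay at -121 to -112. Psmb9 and Tap1 are transcribed away from each other, with starts 457 bases apart, so the Tap1 match lay between both starts, outside the Psmb9 window. Of the shorter motifs searched, the gamma-activated site TTCNNNGAA was found in the Psmb8 window (8.87% of all windows) and the NF-κB-like GGGACTTTC in the Tap1 window (0.326%). Among 179 other array genes whose window held the interferon motif GAAANNGAAA, 8.38% were called lower and 2.79% higher, and among 3634 genes without that motif 7.54% were called lower and 8.81% higher. The median log2-fold changes were 0.0046 and 0.012.

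The probes of Psmb8, Psmb9, Tap1, Tap2 and Tapbp lie in or beside the class II region of the MHC on chromosome 20, and that of Psmb10 lies on chromosome 19. The 3 sequences below are those the results turn on, the Psmb8 probe for the largest mean change and both Tap1 probes for a dye effect, in lower case throughout. In the coordinates of the scanner files (build rn3, minus strand) the Psmb8 probe was placed at chr20:4787233-4787711, a span of 479 bases for 60 bases of probe, the Tap1 probe A_43_P15763 at chr20:4797280-4797339 and the Tap1 probe A_44_P451916 at chr20:4793054-4794189.
Psmb8 (A_42_P761035): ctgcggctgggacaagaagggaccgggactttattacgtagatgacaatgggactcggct
Tap1 (A_43_P15763): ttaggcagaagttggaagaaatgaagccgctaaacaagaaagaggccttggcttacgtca
Tap1 (A_44_P451916): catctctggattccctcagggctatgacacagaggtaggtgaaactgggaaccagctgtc
All 7 probes were well above background in both samples on 24 of 24 arrays and no spot was saturated, so every value below is a measured ratio and not a bound.

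Over the arrays, between 74.8% and 99.9% of the spots were well above background. Array 1 of rat 10 was far brighter than the rest, with a median Cy5 signal of 25642 against 353 for the median array. Rat 8 stood apart. Its log2 ratios over all probes correlated with those of the other rats with a median r of 0.17, where the medians of the other 11 rats lay between 0.37 and 0.69, although its own 2 arrays had an r of 0.94. The SD of its ratios over the probes was 0.71, against 0.38 for the next rat. Results are therefore also given without rat 8. In some other rats the 2 arrays were far less alike over all probes. Their r was 0.13 in rat 10, which had the bright array, 0.20 in rat 3, 0.26 in rat 6 and 0.30 in rat 2. In the rest it lay between 0.62 (rat 11) and 0.80 (rat 9).

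The first question was whether the antigen-processing genes differed between allogeneic and syngeneic explants. All 6 means lay below 0, between -0.42 and -0.14. Of the 6 genes 4 were lower in the sample labelled allogeneic at an adjusted p under 0.05 (limma, Benjamini-Hochberg over 7250 genes), namely the 3 immunoproteasome subunits and Tap2, and none was higher. Over the whole array 7.57% of the genes were called lower and 8.63% higher. At the level of probes 4 of 7 were called, against 8.48% of 8453 probes called lower. These are the signs that the dyes named in the labels give. The study's own account of Psmb8 and Tap1, and of RT1-A1, RT1-A2 and Aif1 below, runs in the opposite direction. In size the accounts differ too. The study marks Psmb8 as strongly and Tap1 as moderately but significantly up-regulated, while here Psmb8 changed 1.34-fold and Tap1 was not called. A turned sign would not remove that difference. The study also ran quantitative PCR, which does not depend on the array dyes, on part of these sample pairs. It reported the same direction as its array results for Psmb8, RT1-A2, Aif1 and every other gene tested except RT1-CE10. By the same method it reported Aif1 as up-regulated in independent rat explants and in affected skin of transplanted rats. In human explants of a single donor, compared with medium alone, it found PSMB8 and TAP1 up-regulated on every day sampled. It also cites mouse studies of the disease in skin and liver in which Tap1 and Psmb8 rose. If the labels had the dyes exchanged, the sign of every log2 ratio averaged over both arrays would turn while its size and p stayed. The values given below for a single dye orientation would turn and move to the other orientation. The difference between the orientations would therefore keep its sign. Which of the accounts holds was not settled here. "Lower" therefore means lower in the sample labelled allogeneic throughout. All the changes were small, at most 1.34-fold in the mean.

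**Figure D1:**
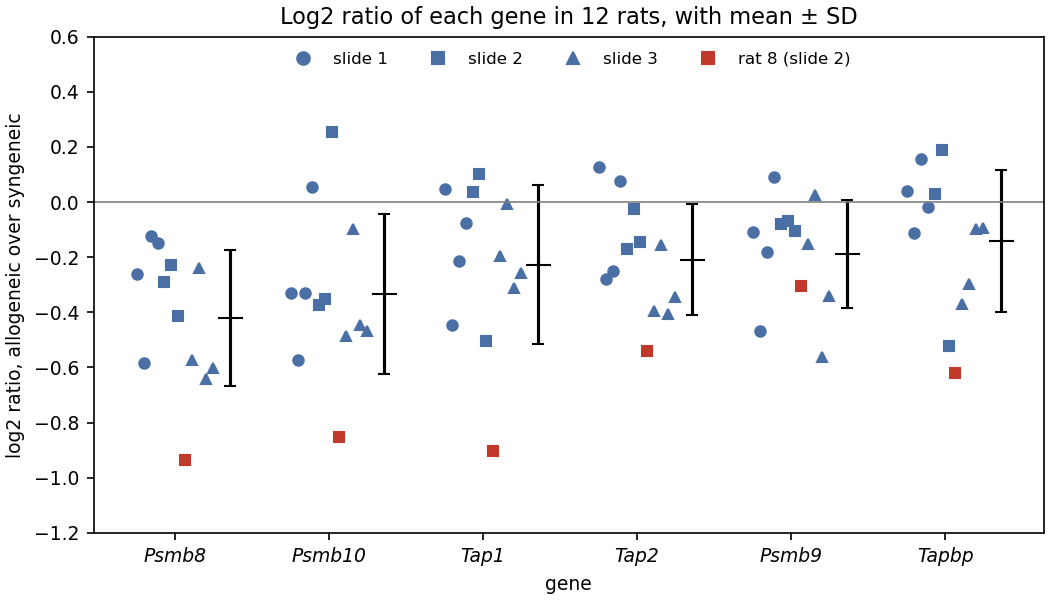
Log2 ratio of the sample labelled allogeneic over the sample labelled syngeneic (y axis) for the 6 genes (x axis), 1 point a rat, with the mean ± SD over 12 rats beside the points; marker shape gives the slide and red marks rat 8. Psmb8 was below 0 in 12 of 12 rats, and rat 8 was the lowest rat for every gene but Psmb9.

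Psmb8, which carries the chymotrypsin-like activity of the immunoproteasome, had the largest mean change of the 6. Its normalized log2 signal ranged from 11.21 to 12.72 in the sample labelled allogeneic (median 11.83) and from 11.57 to 12.96 in the sample labelled syngeneic (median 12.07), so the levels of the groups overlapped while the ratio within each rat did not reach 0. The log2 ratio was -0.94 in the lowest rat, -0.35 in the median and -0.12 in the highest. The mean was -0.42 ± 0.25 (SD, n = 12 rats; SE 0.068; limma adjusted p = 0.00128), a signal 1.34-fold higher in the sample labelled syngeneic. It was below 0 in 12 of 12 rats, as was the case for 3.23% of the genes on the array, and 2.39% of all genes had a lower mean. With the sign turned, 2.66% of the genes were above 0 in 12 of 12 rats and 1.61% had a mean above 0.42. Without rat 8 the mean was -0.37.

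Psmb10, the inducible subunit that takes the place of Psmb7, came next. Its log2 ratio ran from -0.85 in rat 8 through a median of -0.36 to 0.25 in rat 7, with a mean of -0.33 ± 0.29 (SD, n = 12; limma adjusted p = 0.0125). It was lower in 10 of 12 rats, the exceptions being rats 4 and 7. The probe had a single spot on each array, so its error includes the error of that spot. Without rat 8 the mean was -0.29.

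Psmb9, the inducible subunit that takes the place of Psmb6, had a smaller mean. The lowest, median and highest rats gave -0.56, -0.13 and 0.09, and the mean was -0.19 ± 0.20 (SD, n = 12; limma adjusted p = 0.0315), with 10 of 12 rats below 0. Here rat 11 and not rat 8 was the lowest, and without rat 8 the mean was -0.18. The call was fragile. With a single rat left out, it held in 7 of 12 cases and was lost without rat 2, 3, 9, 11 or 12 (adjusted p between 0.0506 and 0.0665).

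The chains of the transporter had similar means and different spreads. Tap2 gave -0.54 in the lowest rat, -0.21 in the median and 0.13 in the highest, with a mean of -0.21 ± 0.20 (SD, n = 12; limma adjusted p = 0.0213) and 10 of 12 rats below 0. Tap1 gave -0.90, -0.20 and 0.10, with a mean of -0.23 ± 0.29 (SD, n = 12; limma adjusted p = 0.0697) and 9 of 12 rats below 0. The Tap1 mean was no closer to 0 than that of Tap2, but its larger spread left it outside the threshold. Without rat 8 the means were -0.17 for Tap1 and -0.18 for Tap2. Without rat 6 Tap1 passed the test, at -0.26 (adjusted p = 0.0497). The 2 Tap1 probes had no sequence in common in the file's coordinates, and their means were -0.26 ± 0.32 (adjusted p = 0.0662) for A_43_P15763 and -0.20 ± 0.27 (adjusted p = 0.0799) for A_44_P451916 (SD, n = 12, limma over all probes). Each probe alone thus gave the same side of 0 and of the threshold.

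Tapasin had the smallest mean. The Tapbp log2 ratio was -0.62 in the lowest rat, -0.10 in the median and 0.19 in the highest, and the mean of -0.14 ± 0.26 (SD, n = 12; limma adjusted p = 0.205) did not pass the test. It was below 0 in 8 of 12 rats, and without rat 8 its mean was -0.10. On slide 1 its mean was 0.02 (n = 4 rats), the only mean of the 6 genes above 0 on any slide, and on slides 2 and 3 it was -0.23 and -0.21.

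In order of their means the genes ran Psmb8, Psmb10, Tap1, Tap2, Psmb9, Tapbp. No neighbours in this order differed beyond the spread between rats in an exact sign-flip permutation test over the 12 rats (two-sided, adjusted p over the 5 pairs between 0.726 and 0.754). The ends of the order, Psmb8 and Tapbp, were 0.28 apart in the mean, and Psmb8 was the lower of these in 10 of 12 rats. Within an array the spots of a probe had a median SD between 0.040 and 0.070 for the 6 probes with 3 or 4 spots, smaller than the SD between rats of 0.20 to 0.29.

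Of the constitutive subunits that the inducible ones replace, Psmb5, the counterpart of Psmb8, was on the array, and Psmb6 and Psmb7 were not found among its gene names. Psmb5 had a mean of 0.07 ± 0.22 (SD, n = 12; limma adjusted p = 0.520) with 7 of 12 rats above 0. The difference Psmb8 minus Psmb5 was -0.89 in the lowest rat, -0.51 in the median and 0.01 in the highest. Its mean was -0.49 ± 0.37 (SD), with 11 of 12 rats below 0 (exact sign-flip permutation test, two-sided, p = 0.000977; 1 pair, hence no adjustment). It passed the same test on either dye orientation alone, at -0.45 with the allogeneic sample in Cy5 and -0.52 with it in Cy3. Without rat 8 the mean difference was -0.47. The ratio of the inducible to the constitutive subunit was thus lower in the sample labelled allogeneic. A ratio of ratios does not say which of the pair moved. In the gene fits Psmb8 was called (-0.42, limma adjusted p = 0.00128) and Psmb5 was not.

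Each rat was measured in both dye orientations, and a second question was whether these gave the same answer. For all 6 genes the difference between the 2 arrays of a rat passed the test (limma adjusted p over all genes), as it did for 51.9% of the 7250 genes on the array. The 6 genes were therefore no exception in having such a difference. Their sizes differed widely, from 0.11 for Psmb8, near the median of all genes (0.11), to 0.70 for Tap1, larger in size than in 98.9% of all genes.

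**Figure D2:**
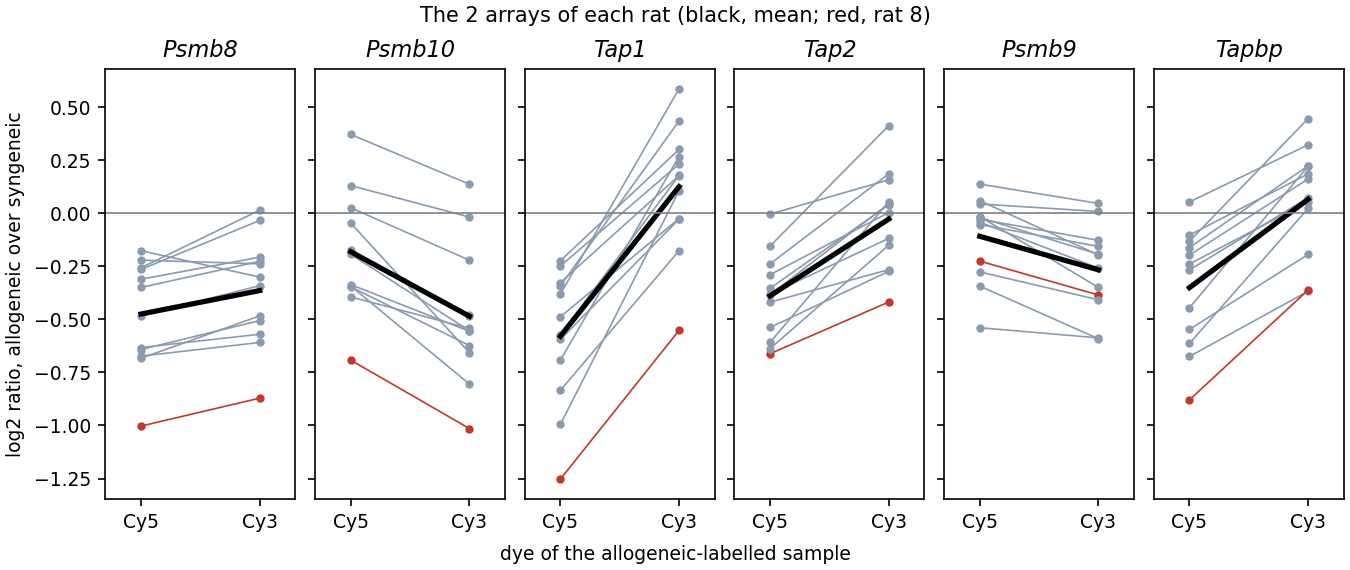
Log2 ratio on the array with the sample labelled allogeneic in Cy5 and on that with it in Cy3 (x axis), 1 line a rat (red, rat 8; black, mean of 12 rats), 1 panel a gene. The lines of Tap1, Tap2 and Tapbp rise from Cy5 to Cy3 in every rat, those of Psmb9 and Psmb10 fall in every rat, and those of Psmb8 stay closest to level.

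With the allogeneic sample in Cy5, Tap1 was below 0 in 12 of 12 rats, from -1.25 to -0.22, with a mean of -0.58 ± 0.32 (SD; limma adjusted p = 0.000453). With the dyes exchanged it was above 0 in 8 of 12 rats, from -0.55 to 0.59, with a mean of 0.12 ± 0.30 (limma adjusted p = 0.271). The difference, Cy5 minus Cy3, had a mean of -0.70 ± 0.21 (SD, n = 12; adjusted p = 2.18e-07) and was negative in 12 of 12 rats. Both Tap1 probes had it, A_43_P15763 with -0.89 ± 0.25 and A_44_P451916 with -0.52 ± 0.23.

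Tap2 and Tapbp went the same way. Tap2 fell in 12 of 12 rats on the Cy5 arrays, with a mean of -0.39 ± 0.20 (limma adjusted p = 0.000369), and its mean was -0.03 ± 0.23 on the Cy3 arrays (adjusted p = 0.782), a difference of -0.36 ± 0.16 (SD, n = 12; adjusted p = 9.82e-06). Tapbp had a mean of -0.35 ± 0.28 on the Cy5 arrays (adjusted p = 0.00409) and 0.07 ± 0.26 on the Cy3 arrays (adjusted p = 0.517), a difference of -0.42 ± 0.14 (adjusted p = 1.29e-06). The call of Tap2 as lower thus rested on the mean of arrays with unlike values.

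The subunits Psmb9 and Psmb10 went the opposite way. Psmb10 was -0.18 ± 0.28 with the allogeneic sample in Cy5 (adjusted p = 0.0863) and -0.49 ± 0.32 with it in Cy3 (adjusted p = 0.00138), a difference of 0.30 ± 0.13 (SD, n = 12; adjusted p = 1.17e-05). For Psmb9 the means were -0.11 ± 0.20 (adjusted p = 0.148) and -0.27 ± 0.21 (adjusted p = 0.00388), a difference of 0.16 ± 0.09 (adjusted p = 0.000457). Neither gene changed its sign between the orientations.

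Counted by orientation, 4 of the 6 genes were called lower with the allogeneic sample in Cy5 (Psmb8, Tap1, Tap2 and Tapbp), against 12.8% of all genes (17.4% were higher), and with it in Cy3 the 3 subunits were, against 13.7% (14.9% higher). Psmb8 was the one gene of the 6 called lower in both orientations, as were 4.34% of all genes, while 3.6% were called higher in both. Its mean was -0.47 ± 0.25 with the allogeneic sample in Cy5 (limma adjusted p = 0.000397), with 12 of 12 rats below 0, and -0.36 ± 0.25 with it in Cy3 (adjusted p = 0.00204), with 11 of 12 rats below 0. The difference was -0.11 ± 0.11 (SD, n = 12; adjusted p = 0.0114). Which dye read lower depended on the normalization. With each array centred on its median in place of loess, the Psmb8 difference was 0.54 and those of Tap2 and Tapbp were 0.08 and 0.09, so their signs turned, whereas the mean over both orientations moved little. A dye effect of a probe cancels in that mean, since every rat has both orientations.

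The dye difference correlated weakly with the base counts of the probes. Over the 8453 probes its correlation was -0.18 with the number of G, 0.21 with that of T, -0.05 with that of A and -0.03 with that of C. With the mean intensity it was -0.02. Loess had removed trends with intensity within each array, so that value could not show one. Probes share arrays and are not independent, so no p is given. The Tap1 probes held 17 G each, of 60 bases, and the Psmb8 probe, with the smallest difference of the members, held 21. The cause of the dye difference was not tested.

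For these genes, though not over all probes in every rat, the 2 arrays of a rat went together in spite of the dyes. Over the 12 rats, the log2 ratio on 1 array of a rat correlated with that on the other with an r between 0.73 (Tap2) and 0.91 (Psmb10). For Psmb8 the r was 0.91 (permutation p = 0.00010) and rho was 0.78 (permutation p = 0.00443), and the r without the 2 rats farthest from the median was 0.84. A rat that was low for a gene on 1 array was therefore low on the other, with a shift by dye. The rats with the lowest mean over the 6 genes were rat 8 with -0.69, rat 11 with -0.41 and rat 2 with -0.41, and in rats 2, 8, 9, 11 and 12 all 6 genes were below 0. Rat 4 was the least changed, with a mean of -0.0031 and 3 genes on either side of 0.

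**Figure D3:**
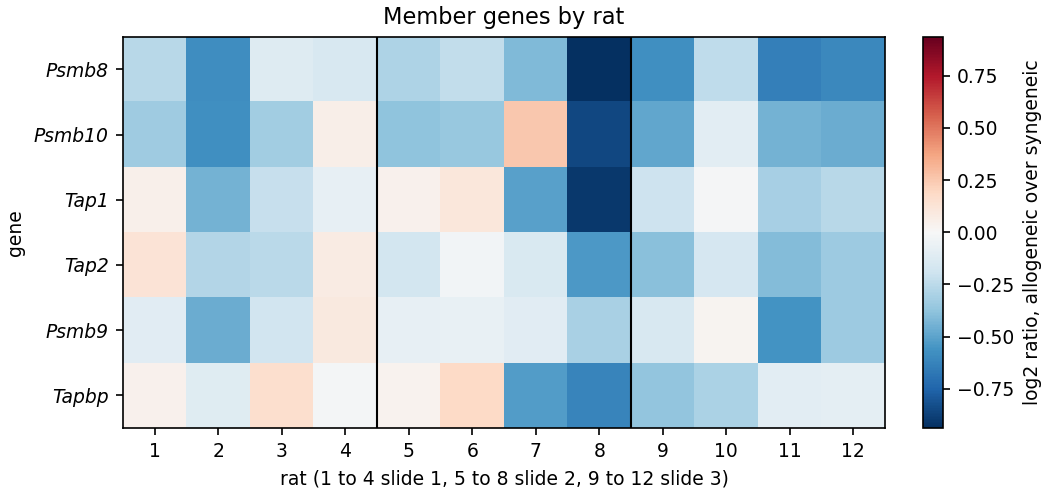
Log2 ratio of the 6 genes (rows) in the 12 rats (columns, slides divided by black lines), blue below 0 and red above 0. Rats 2, 8, 9, 11 and 12 are blue for all 6 genes, with rat 8 the darkest for Psmb8, Psmb10 and Tap1, and rat 7 is red for Psmb10 alone.

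The genes varied together over the rats. Over the 15 pairs the median Pearson's r was 0.66, from 0.05 to 0.82, and 10 pairs passed a permutation test of r at an adjusted p under 0.05 and 11 a test of Spearman's rho (100000 resamples, Benjamini-Hochberg over the 15 pairs of each measure). The closest pair was Psmb8 and Tap2, with r = 0.82 (permutation p = 0.00114, adjusted 0.0152) and rho = 0.76 (permutation p = 0.00557, adjusted 0.0271), and with r = 0.68 without rats 8 and 11, the farthest from the median. Tap1 and Tap2, the partners of the transporter, had r = 0.71 (permutation p = 0.00841, adjusted 0.0281) and rho = 0.66 (permutation p = 0.0234, adjusted 0.0381), and r = 0.51 without rats 6 and 8.

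The loosest pairs joined Tapbp to the subunits. Psmb10 and Tapbp had r = 0.05 (permutation p = 0.873, adjusted 0.873) and rho = 0.28 (permutation p = 0.380, adjusted 0.407), and Psmb9 and Tapbp had r = 0.11 (permutation p = 0.738, adjusted 0.791) and rho = 0.24 (permutation p = 0.457, adjusted 0.457). With the 2 rats farthest from the median left out, r was 0.07 and 0.27. Some of the likeness rested on rat 8. Without it the median r over the 15 pairs was 0.56, and the r of Psmb10 and Tap1 went from 0.37 to -0.08. The genes of a pair share the array, the amplified RNA and the spread of the rat's other genes. With gene A read on 1 array of a rat and gene B on the other, the median r was 0.62.

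The 5 other genes whose log2 ratios followed the mean of the 6 most closely, among 6019 genes well above background in both dyes on at least 12 of 24 arrays, were Irf4_predicted (r = 0.92), Mfge8 (0.92), Socs3 (0.91), Rhoc_predicted (0.90) and Il2rg (0.89), where the median r of the candidates was -0.13. Irf4 is a transcription factor of lymphocytes, Mfge8 a bridge in the uptake of dying cells, Socs3 a brake on cytokine signalling and Il2rg the common gamma chain of interleukin receptors. These are the largest of many correlations over 12 rats and are given as a description. Without rat 8 they were between 0.81 and 0.89. Of the 5, Il2rg was itself called lower, at -0.17 ± 0.13 (SD, n = 12; limma adjusted p = 0.00676).

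Other genes of the pathway were taken from lists of class I processing and interferon genes and from markers of cell types. Among the lists of the pathway, the class Ia heavy chains had the median nearest to that of the 6 genes (-0.33 against -0.22). The median of the T cell markers, -0.26, was nearer still. RT1-A1, with 5 probes, had a mean of -0.33 ± 0.18 (SD, n = 12; limma adjusted p = 0.00070) and RT1-A2 of -0.41 ± 0.20 (adjusted p = 0.000391), each below 0 in 12 of 12 rats, and RT1-A3 gave -0.16 ± 0.27 (adjusted p = 0.164). These genes are near-identical copies whose probes can take up each other's RNA, and the probes follow the BN sequence while PVG cells carry other alleles. The part of either in the values was not tested. Psmb8, Psmb9, Tap1, Tap2 and Tapbp also lie in or beside the class II region of the mismatched MHC. Whether PVG alleles affected their probes was not tested either. B2m, the light chain of class I, had a mean of 0.0025 ± 0.55 (adjusted p = 0.994), was below 0 in 10 of 12 rats and gave -0.15 without rat 8.

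**Figure D4:**
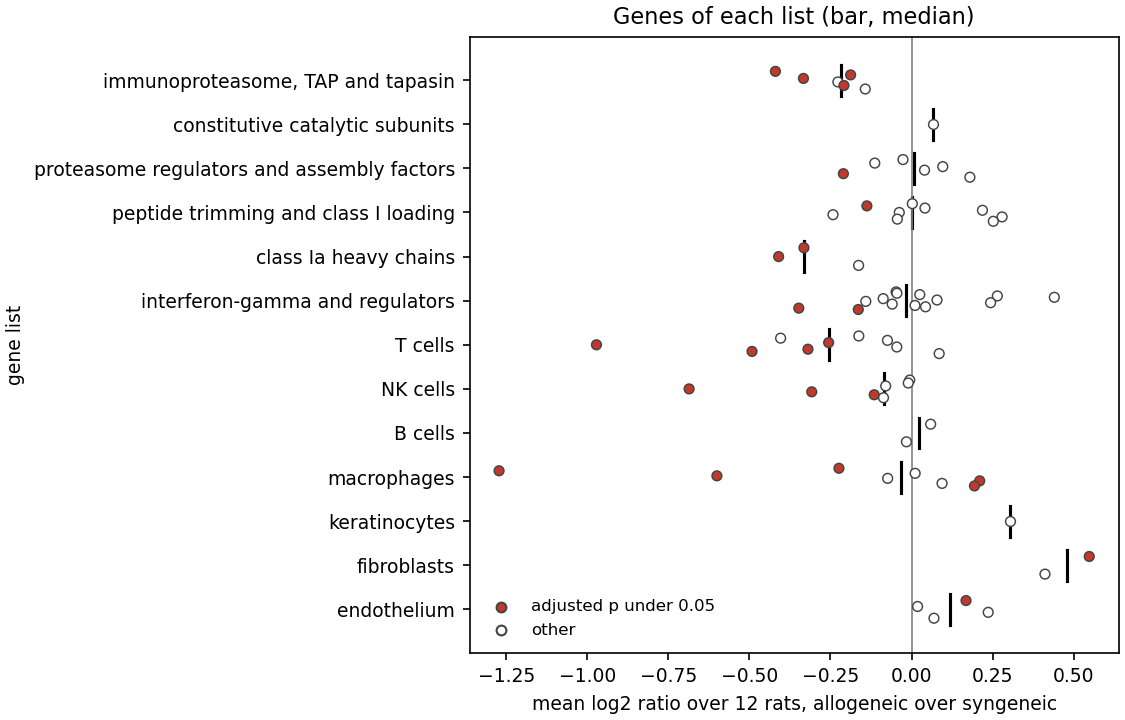
Mean log2 ratio over 12 rats (x axis) of each gene of the lists (y axis), with the 6 genes described here in the top row; filled points had a limma adjusted p under 0.05 and the black bar is the median of the list. The top row and the class Ia heavy chains lie below 0 throughout, and the proteasome regulators and loading factors lie on both sides of 0.

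Over the whole array 7.57% of the genes were called lower and 8.63% higher. Counts this small in short lists are not read as a result about the lists. Among the 6 proteasome regulators on the array, 1 was called lower, the assembly chaperone Psmd9 (-0.21 ± 0.13, adjusted p = 0.00163), none was called higher, and their median was 0.0069. Of the 9 genes of peptide trimming and loading, 1 was called lower, the chaperone calreticulin Calr (-0.14 ± 0.16, adjusted p = 0.0465), none higher, with a median of 0.0025. Of the 14 genes on the list of interferon-gamma and regulators, 2 were called lower and none higher, with a list median of -0.02. These were Socs1, which restrains JAK signalling (-0.35 ± 0.24, adjusted p = 0.00378), and Tnf, a separate cytokine on the list (-0.16 ± 0.10, adjusted p = 0.00208). Beside a median over all genes of 0.01, the shifts of these lists were small, whereas the median of the 6 genes described here was -0.22. Ifng itself, named after its level was seen, exceeded the background clearly on only 7 arrays for the sample labelled allogeneic and on 10 for the sample labelled syngeneic, so its ratio is weakly measured.

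Some but not most markers of T and NK cells were called lower, where 7.57% of all genes were called lower and 8.63% higher. Whether these markers varied with the 6 genes over the rats was not tested. Of the 9 T cell markers on the array, 4 were called lower and none higher: Cd8b (-0.49 ± 0.23, adjusted p = 0.000319), Cd8a (-0.32 ± 0.22, adjusted p = 0.00385), Cd2 (-0.26 ± 0.24, adjusted p = 0.0193) and Cd5 (-0.97 ± 0.84, adjusted p = 0.0115). The mean log2 signal of the list ranged over the rats from 7.78 to 8.84 in the sample labelled allogeneic and from 8.00 to 9.15 in the sample labelled syngeneic. Of the 7 NK cell markers 3 were called lower and none higher, the granule genes Gzmb (-0.69 ± 0.47, adjusted p = 0.00312) and Nkg7 (-0.31 ± 0.20, adjusted p = 0.00223) and the receptor Klrb1a (-0.12 ± 0.11, adjusted p = 0.0234), over 7.40 to 7.98 and 7.49 to 8.12. The other receptors on the NK cell list were not called. Such a list is no cell count, and its part in the values of the 6 genes was not tested.

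The 8 macrophage markers split, where 7.57% of all genes were called lower and 8.63% higher. Aif1 (-1.27 ± 0.50, adjusted p = 0.000102), Itgam (-0.60 ± 0.40, adjusted p = 0.00260) and Csf1r (-0.22 ± 0.19, adjusted p = 0.0119) were lower, and the complement genes C1qa (0.21 ± 0.21, adjusted p = 0.0247) and C1qc (0.19 ± 0.21, adjusted p = 0.0406) were higher. Aif1, a gene of the MHC, had a larger mean change than any of the 6, again with the sign that the labels give and against the study's account. The signs of all marker lists rest on the labelled dyes in the same way. The list ranged from 9.71 to 10.93 in the sample labelled allogeneic and from 9.91 to 11.23 in the other. Neither of the 2 B cell markers was called, over 6.82 to 9.06 and 6.94 to 9.11.

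Few genes of the skin's own cells were on the array, and those called were higher, as were 8.63% of all genes (7.57% were lower). Col1a2, a collagen chain of fibroblasts (0.55 ± 0.40, adjusted p = 0.00433), 1 of 2 fibroblast markers, and Pecam1 (0.17 ± 0.13, adjusted p = 0.00746), 1 of 4 endothelial markers, were higher, and none of either list was lower. The fibroblast pair ranged from 11.34 to 13.69 in the sample labelled allogeneic and from 10.79 to 13.31 in the other, and the endothelial list from 9.39 to 11.08 and from 9.11 to 10.66. Of 14 keratinocyte markers 1 was on the array, Tp63, which was not called (log2 signal 11.65 to 14.14 and 11.30 to 14.14). The keratins were not found among the gene names, so the epidermis could be checked only through this gene. All markers in these lists were well above background in both samples on at least 12 of 24 arrays, and the part of a shift between immune and skin cells in the lower ratios of the 6 genes was not tested.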

How the data were processed

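The authors deposited 1 scanner file an array. Per the file headers, spot and local background intensities in Cy3 and Cy5 were extracted by Feature Extraction 9.5.1.1 (probe coordinates on rn3), unnormalized, beside processed intensities. The deposited series table holds log2 ratios made by the authors; its 24 columns correlated with the allogeneic over syngeneic processed log ratio (0.707 to 0.955), with medians from -0.027 to 0.022, so its scale was taken as log2, with unstated background treatment. The labels name an amplification kit and limma.

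In R 4.3.3 with limma 3.58.1 (statmod 1.5.0, data.table version 1.17.8, nlme 3.1.168), mean intensities were background-corrected (normexp, offset 50) and loess-normalized within arrays. Control and outlier spots were dropped, ratios turned by the labelled dyes, and averaged over spots, probes of a gene and the 2 arrays of a rat. The 12 rats were tested against 0 by lmFit and eBayes, with Benjamini-Hochberg adjustment over all genes or probes. Signal per sample was taken after Aquantile scaling. The number of arrays limits precision; p-values measure the spread between rats labelled biological replicates. Genes were named by the study's list, then RefSeq accession, then the file. Scripts were tested on simulated data.

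The text names the 6 genes, list genes with an adjusted p under 0.05, Psmb5, B2m, class Ia genes and the 5 genes most correlated with the members' mean. The members and lists were chosen with earlier results of these data known, and the motifs after the ratios were seen. The alternatives tried were other background corrections and normalizations, the series table, outlier spots kept, a filter on dim probes, slides, single orientations, other probe rules, other tests and each rat left out.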

Additional observations from a re-analysis of the deposited data

Results flagged for a closer look

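The dye orientations of the same contrast differed for all 6 genes by limma on the per-rat difference (array with the sample labelled allogeneic in Cy5 minus array with it in Cy3, n = 12 rats). The difference was -0.70 for Tap1, -0.42 for Tapbp, -0.36 for Tap2, 0.30 for Psmb10, 0.16 for Psmb9 and -0.11 for Psmb8. It had the same sign in 12 of 12 rats for each of these but Psmb8, where 10 of 12 were negative. For Tap1 and Tapbp the mean ratio itself lay on opposite sides of 0 in the 2 orientations, as it did for 51.2% of the 7250 genes. Its cause was not tested.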

How the results depend on the processing

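The 6 genes and both Tap1 probes kept a mean below 0 under every background correction and normalization, with the series table, outlier spots kept, dim probes left out, slide as a block, other probe rules and every test. The calls of Psmb8 and Psmb10 held with any rat left out. Tap2 was -0.19 (adjusted p = 0.0562) with median centring. The 24-array fit with rat as a random replicate block called Tap1 too (-0.23, adjusted p = 0.0183) and changed no other gene's call.

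With a rat left out, Psmb9 ranged from -0.21 to -0.15, Tap1 from -0.26 (without rat 6, adjusted p = 0.0497) to -0.17 (without rat 8), and Tap1 minus Tap2 from -0.039 to 0.013. Tap1 probe A_43_P15763 passed the test without rat 6, 8 or 10, and 3 to 5 of 7 probes were called. On the Cy5 arrays alone Psmb9 (-0.11) and Psmb10 (-0.18) lost the call, and Tap1 (-0.58) and Tapbp (-0.35) gained it. On the Cy3 arrays alone Tap1 was 0.12, Tapbp 0.065, the Tap1 probes 0.19 and 0.060, and Tap2 -0.028. On the Cy5 arrays Psmb8 minus Psmb10 was -0.29, Psmb10 minus Tap1 0.40, Tap1 minus Tap2 -0.19, Tap2 minus Psmb9 -0.28 and Psmb9 minus Tapbp 0.24, and all passed the exact test. On the Cy3 arrays these were 0.12, -0.61, 0.15, 0.24 and -0.33, and all but the first passed. With median centring the orientation difference was 0.54 for Psmb8, 0.084 for Tap2 and 0.088 for Tapbp, and Tap2 minus Psmb9 was 0.035. The cause was not tested. Correlations within a slide were not run, with 4 rats each. Signal over background did not limit the 6 genes.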
